A study of Citrus maxima and Citrus sinensis with 4 samples.

Results

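Of 699 putative miRNA precursor loci in *Citrus* leaves, 7 were described here, namely scaffold_3_349748, scaffold_3_618738 (ci-miRN17), scaffold_3_479557, scaffold_2_310050, scaffold_6_1087335, scaffold_9_1441303 and scaffold_3_502932. They are among the 312 non-conserved loci, which have no homology label, and were chosen by their mature read counts in these libraries, most of which came from 1 species. The species difference itself is therefore given as a description, with no test. Of their reads, 83.2% (scaffold_3_479557) to 100% came from the main species, 4 loci having more reads in *C. grandis* and 3 in *C. sinensis*. They are not a complete list of such loci. Of the non-conserved loci with at least 50 reads, 43 with 23 distinct mature sequences were at least 4-fold apart at both B levels, 36 of them outside the 7.

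Leaf small RNA of sour pummelo (*C. grandis*) and of 'Xuegan' sweet orange (*C. sinensis*) was sequenced after 15 weeks of watering with boric acid at 10 μM (control) or 400 μM (B-toxic). Each of the 4 conditions was 1 library made from the mixed RNA of 5 replicates, so there were no replicates, and tests on the reads of 2 libraries compared those libraries and not the conditions. Mature reads summed over all loci were 373890 (control) and 325441 (B-toxic) for *C. grandis* and 346600 (control) and 243277 (B-toxic) for *C. sinensis*. These sums add the counts of every locus that lists the same sequence. RPM are reads scaled to a total of 1000000. The upper limit that a count of 0 allows, 3 reads, was 8.02 and 9.22 RPM in the *C. grandis* libraries and 8.66 and 12.3 RPM in those of *C. sinensis*. Intervals are exact 95% intervals and cover counting error only, because there was 1 library per condition. PCR copies of a molecule were not told apart, so even this error may be understated. The files hold no leaf marker genes, so the tissue was not checked.

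Plant miRNAs are cut from the stem of a folded transcript by DICER-LIKE enzymes and guide the cleavage or repression of matching mRNAs, and most of the widely conserved ones are 21 nt long. Small RNAs of 24 nt are typically made by another enzyme of this family, often from transposons and inverted repeats, and guide DNA methylation. Stem-loops without homologues in other plants can differ between close relatives. Sweet orange is itself a hybrid of pummelo and mandarin, and clementine, on whose genome the precursors were predicted, is a hybrid of mandarin and sweet orange.

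The mature sequences are shown first because 3 of the loci turn on their resemblance. Capitals mark the seed (bases 2 to 8), and the table does not pair these loci with coordinates, so the scaffold in each name is the only position given.
scaffold_3_349748: aCGGCUGGaugcaacuguggcacg
scaffold_3_618738: gUACUGUAgcugugagggggacgu
scaffold_3_479557: gUACUGUAgccgugagggggacgc
scaffold_2_310050: aUCCCCCUcccagcuacaguaccc
scaffold_6_1087335: aCAUCUUUuuaaguagaacuuauu
scaffold_9_1441303: aGAUCUAUugaacuuuaaucuaag
scaffold_3_502932: uGAUCUGUgauccugauaucu

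Of these sequences, 6 were 24 nt long and scaffold_3_502932 was 21 nt long. They had 6 distinct seeds, since scaffold_3_618738 and scaffold_3_479557 shared theirs with each other and with no other locus. The sequence of scaffold_3_349748 was listed at 10 loci and the others at 1 each. The first base was A in 4, as in 94 of the 176 non-conserved 24 nt loci.

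The most reads among the 7 were those of scaffold_3_618738, with 32 (control) and 15 (B-toxic) reads for *C. grandis* against 3953 and 5944 for *C. sinensis*. In RPM the levels were 85.6 and 46.1 against 11405 and 24433. Both *C. sinensis* libraries were far above both *C. grandis* libraries, by 133-fold in the controls (log2 ratio 7.06, interval 6.56 to 7.61) and 530-fold under B-toxicity (9.05, 8.33 to 9.89). This single sequence made up 2.44% (2.38 to 2.51) of the mature reads summed over all loci in B-toxic *C. sinensis*.

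The sequence with the same seed, scaffold_3_479557, had 711 and 539 reads in control and B-toxic *C. grandis* and 3281 and 2924 in *C. sinensis*. Its levels were 1902 and 1656 RPM against 9466 and 12019 RPM. The libraries of the species did not overlap, but the gap was smaller, with log2 ratios of 2.32 (2.20 to 2.43) in the controls and 2.86 (2.73 to 2.99) under B-toxicity. It was the only 1 of the 7 with more than 10% of its reads in the minor species.

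Reads of scaffold_2_310050 numbered 83 and 108 in control and B-toxic *C. grandis* (222 and 332 RPM) and 0 in both *C. sinensis* libraries. With 0 set to the limit of 3 reads it was 25.6-fold and 26.9-fold higher in *C. grandis* at the 10 and 400 μM levels. The intervals of the log2 ratio of *C. sinensis* over *C. grandis* reached up to -4.35 and -4.43. The direction was thus opposite to that of scaffold_3_618738 and scaffold_3_479557, whose hairpins resemble its own.

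The sequence of scaffold_3_349748 had 2100 and 2197 reads in control and B-toxic *C. grandis* and 85 and 96 in *C. sinensis*, or 5617 and 6751 RPM against 245 and 395 RPM. It was 22.9-fold higher in *C. grandis* in the controls (log2 ratio -4.52, interval -4.85 to -4.20, for *C. sinensis* over *C. grandis*) and 17.1-fold higher under B-toxicity (-4.10, -4.41 to -3.80). These reads are not particular to this locus. Over the 10 loci with the same mature sequence the control *C. grandis* counts were 1847 to 2419 (median 2392), and those of control *C. sinensis* were 72 to 102 (median 99).

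The remaining loci had fewer reads, all of them in 1 species. In *C. sinensis*, scaffold_6_1087335 had 84 control and 93 B-toxic reads (242 and 382 RPM) and none in *C. grandis*. With 0 set to 3 reads it was 30.2-fold and 41.5-fold higher in *C. sinensis* at the 10 and 400 μM levels. The intervals of its log2 ratio of *C. sinensis* over *C. grandis* reached down to 4.59 and 5.05. In *C. grandis*, scaffold_9_1441303 had 47 and 29 reads (126 and 89.1 RPM) and scaffold_3_502932 had 32 and 20 (85.6 and 61.5 RPM). Neither had a read in *C. sinensis*. With 0 set to 3 reads they were 14.5-fold and 9.89-fold higher in the control and 7.23-fold and 4.98-fold higher in the B-toxic *C. grandis* library. The intervals of their log2 ratios reached up to -3.51 and -2.92 in the controls. Under B-toxicity they reached -2.46 and -1.88, the last short of 4-fold. A count of 0 refers to the exact mature sequence listed, and reads of variants of it were not analysed here.

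**Figure D1:**
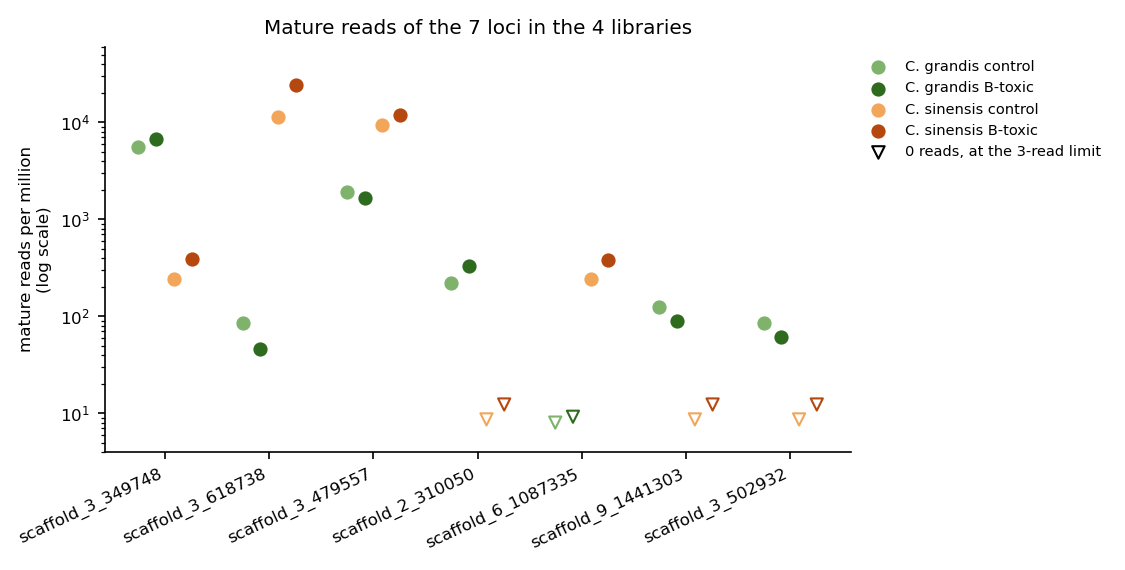
Mature RPM (log scale) of the 7 loci in the 4 libraries, 1 point per library, with open triangles at the limit of 3 reads where a library had 0 reads. The libraries of a species lie together at every locus, and scaffold_3_618738 spans the widest range, from 46.1 to 24433 RPM.

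Of the 317 loci with at least 50 reads, 59 (18.6%) were at least 4-fold apart in the same direction at both B levels, with counts of 0 set to 3 reads, 40 (12.6%) higher in *C. grandis* and 19 (5.99%) higher in *C. sinensis*. All 7 loci were among the 59 by their choice. The median log2 ratio of *C. sinensis* over *C. grandis* was -0.55 in the controls and -0.32 under B-toxicity over the 317 loci, and -1.06 and -0.34 over the 92 non-conserved 24 nt loci with as many reads. Other library scalings moved every species ratio alike, by up to 0.62 on the log2 scale. That is too little to turn any of the 7 directions, since the loci were chosen as far apart. With edgeR's TMM under B-toxicity scaffold_3_502932 came just under 4-fold.

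**Figure D2:**
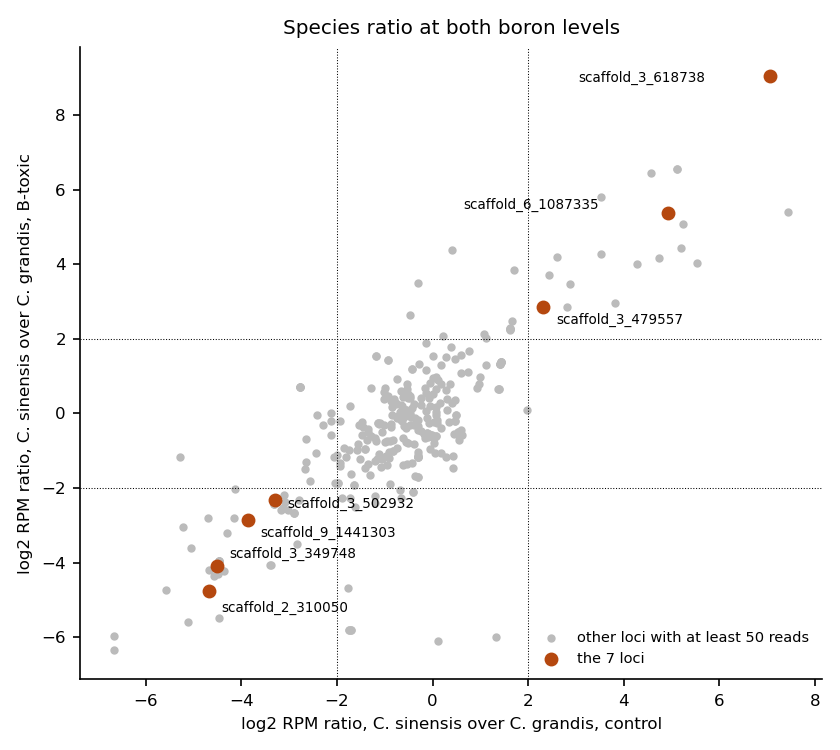
Log2 RPM ratio of *C. sinensis* over *C. grandis* in the control libraries (x axis) and B-toxic libraries (y axis) for the 317 loci with at least 50 reads, the 7 loci in orange, dotted lines at 4-fold and counts of 0 set to 3 reads. The 3 loci higher in *C. sinensis* lie at the upper right and the 4 higher in *C. grandis* at the lower left.

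The precursors of scaffold_3_618738 and scaffold_3_479557, printed below with the mature sequence in capitals, show that these loci are the opposite strands of 1 stretch or of identical copies of it.
scaffold_3_618738: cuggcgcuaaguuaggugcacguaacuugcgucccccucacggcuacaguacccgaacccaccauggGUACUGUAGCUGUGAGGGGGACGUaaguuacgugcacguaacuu
scaffold_3_479557: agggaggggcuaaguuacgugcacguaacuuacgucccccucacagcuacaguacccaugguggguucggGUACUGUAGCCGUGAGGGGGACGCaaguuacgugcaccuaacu
scaffold_2_310050: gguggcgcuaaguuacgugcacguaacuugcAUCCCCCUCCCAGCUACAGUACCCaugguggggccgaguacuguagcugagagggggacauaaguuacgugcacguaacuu
The reverse complement of the first precursor (111 nt) and the second (113 nt) were identical over all 102 bases that they share. Only 9 pairs of the 699 precursors were reverse complements over at least 60 bases, and 5 of these pairs had different mature sequences. Both mature sequences lay on the 3′ side of their own precursor, at bases 68 to 91 and 71 to 94. The reverse complement of the 5′ arm of scaffold_3_479557 holds the mature sequence of scaffold_3_618738 without a difference, and that of the 5′ arm of scaffold_3_618738 holds the mature sequence of scaffold_3_479557. Without a genome, a single locus read from both strands and a pair of inverted copies cannot be told apart.

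The related sequences are aligned below, with bases that differ from scaffold_3_618738 in capitals.
scaffold_3_618738: guacuguagcugugagggggacgu
scaffold_3_479557: guacuguagcCgugagggggacgC
scaffold_7_1151387: guacuUuagcCgugagggggacgu
scaffold_2_310050, 3′ arm: guacuguagcugAgagggggacAu
Counted from the 5′ end of scaffold_3_618738, the mature sequence of scaffold_3_479557 had U11C and U24C, outside the seed. That of scaffold_7_1151387, labelled ghr-miR7495a, had G6U and U11C, the first of these within the seed. Such labels are the authors' homology labels, and the homology behind them was not checked here. The precursor of scaffold_2_310050 was identical to that of scaffold_3_479557 at 98 of 111 aligned bases. Its 3′ arm held the same 24 nt stretch with U13A and G23A, but its listed mature sequence came from the 5′ arm, and the reverse complement of that sequence shared a run of 12 bases with scaffold_3_618738.

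By sequence alone, 4 further loci were related to some or all of these 3. The closest in mature sequence, scaffold_7_1151387, was related to scaffold_3_618738 and scaffold_3_479557 but not, by the limits used, to scaffold_2_310050. It was found by sequence and not by its counts. Its reads numbered 22 and 25 in control and B-toxic *C. grandis* and 395 and 301 in *C. sinensis*. It was thus also higher in *C. sinensis*, with log2 ratios of 4.28 (3.66 to 4.97) and 4.01 (3.42 to 4.66). Its precursor was the reverse complement, over 108 bases, of that of scaffold_7_1207354, labelled gma-miR5767. That locus had 32 reads in each *C. grandis* library and 9 and 5 in *C. sinensis*, so that its control ratio had the opposite sign (log2 ratio -1.72, interval -2.97 to -0.62). The others were scaffold_3_565768, with 32, 32, 24 and 19 reads in control and B-toxic *C. grandis* and *C. sinensis*, and scaffold_8_1376100, with 7 reads in all.

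Because scaffold_3_618738 and scaffold_3_479557 can be compared within a library, the share of the former among the reads of both does not depend on scaling. It was 4.31% (2.96 to 6.03) of 743 reads in control and 2.71% (1.52 to 4.43) of 554 in B-toxic *C. grandis*. In *C. sinensis* it was 54.6% (53.5 to 55.8) of 7234 and 67.0% (66.0 to 68.0) of 8868. The intervals of the *C. grandis* libraries overlapped and those of the *C. sinensis* libraries did not. The odds of a read being scaffold_3_618738 in the B-toxic library were 1.69 times (1.58 to 1.80) those in the control in *C. sinensis* and 0.619 times (0.308 to 1.19) in *C. grandis*, where the interval includes 1.

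**Figure D3:**
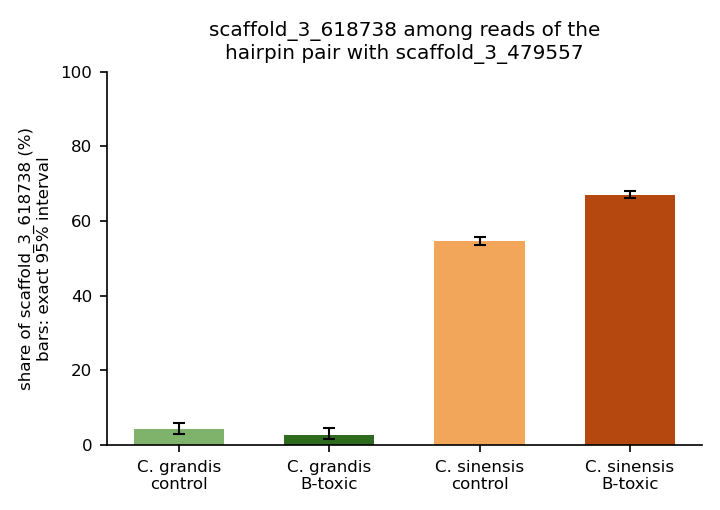
Share (%) of scaffold_3_618738 among the mature reads of scaffold_3_618738 and scaffold_3_479557 in each library, with exact 95% intervals. The share lies below 5% in both *C. grandis* libraries and at 54.6% (control) and 67.0% (B-toxic) in those of *C. sinensis*.

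The loci were chosen by read counts in these libraries, B-toxic and control, and with earlier results of these data known. Whether that choice favoured loci with or without a B effect was not tested. For both species, the shares of all loci called are therefore given as a description and not as an independent comparison. The reads of each locus were set against all other mature reads in a two-sided test (Fisher's exact), and p-values were adjusted by Benjamini-Hochberg over every locus that had a read. A locus was called where the FDR was under 0.01 and the libraries were 2-fold or more apart. For *C. sinensis* this held for 1 of the 4 loci with reads, against 12 of all 640 loci tested (1.88%), 9 of them with more (1.41%) and 3 with less (0.469%) RPM in the B-toxic library. The locus was scaffold_3_618738, which was higher in the B-toxic library with a log2 ratio of 1.10 (1.04 to 1.16). The ratio was close to the limit, and it was 0.95, 0.93 and 1.00 (rounded up) on the log2 scale with edgeR's TMM, DESeq2's size factors and totals without the 3 most abundant loci, so that the call was lost while the FDR stayed below 0.01. It was also lost when libraries of a condition were assumed to vary with a CV of 0.2 (FDR 0.587 by edgeR's exact test).

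The other loci of *C. sinensis* did not reach the ratio limit. The log2 ratio of B-toxic over control was 0.34 (0.27 to 0.42, FDR 2.13e-19) for scaffold_3_479557, which passed the FDR alone, as 57 of 640 loci (8.91%) did. It was 0.69 (0.25 to 1.12, FDR 0.0152) for scaffold_3_349748 and 0.66 (0.22 to 1.10, FDR 0.0239) for scaffold_6_1087335. All 4 ratios were above the median of all loci with reads in both *C. sinensis* libraries, which was 0.25, and that of the non-conserved 24 nt loci was 0.51. By Fisher's exact test all 4 had an unadjusted p below 0.05, against 136 of the 640 loci (21.2%). By edgeR's exact test at a CV of 0.2 only scaffold_3_618738 did.

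In *C. grandis* none of the 6 loci with reads was called, against 45 of all 638 loci tested (7.05%), 24 of them with more (3.76%) and 21 with less (3.29%) RPM in the B-toxic library. At an unadjusted p below 0.05, 3 of the 6 passed (scaffold_3_349748, scaffold_3_479557 and scaffold_2_310050), against 191 of the 638 loci (29.9%), and edgeR's exact test at a CV of 0.2 called none either. The log2 ratio was 0.27 (0.18 to 0.35, FDR 2.24e-08) for scaffold_3_349748, which passed the FDR but not the ratio limit, as 112 of 638 loci (17.6%) passed the FDR. With each sequence counted once its log2 ratio was 0.12 and it passed neither (FDR 0.0246). The log2 ratio was 0.58 (0.15 to 1.01, FDR 0.0287) for scaffold_2_310050 and -0.20 (-0.36 to -0.04, FDR 0.0644) for scaffold_3_479557, whose direction turned with the clean-read totals (0.0545). For scaffold_3_618738 it was -0.89 (-1.88 to 0.03), for scaffold_9_1441303 -0.50 (-1.22 to 0.20) and for scaffold_3_502932 -0.48 (-1.36 to 0.37). These intervals, from 47, 76 and 52 reads, all include no change.

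**Figure D4:**
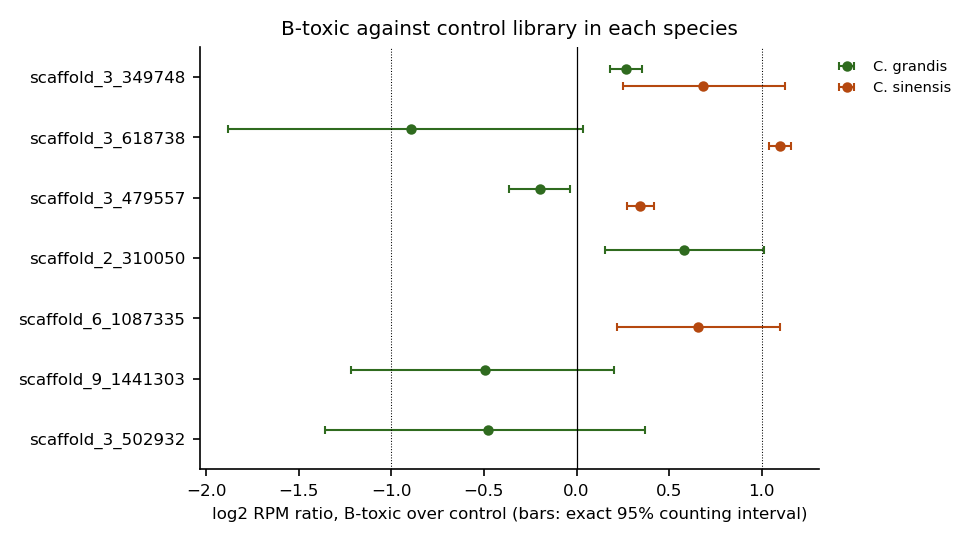
Log2 RPM ratio of the B-toxic over the control library of each species for the 7 loci, with exact 95% counting intervals and dotted lines at the 2-fold limit, and no point where a species had 0 reads. The interval of scaffold_3_618738 in *C. sinensis* is the only 1 that lies wholly beyond 2-fold.

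Whether the B-toxic to control ratio differed between the libraries of the species could be tested for the 3 loci read in both. An exact conditional test, which allows for counting error only, was run over 579 loci, 77 of which (13.3%) had an FDR under 0.01. The log2 ratio was higher in *C. sinensis* than in *C. grandis* by 1.99 for scaffold_3_618738 (FDR 5.23e-05) and by 0.54 for scaffold_3_479557 (FDR 2.98e-08). The second rests on the scaling, since its FDR was 0.0801 with DESeq2's size factors and 0.0803 with the clean-read totals. For scaffold_3_349748 the difference of 0.42 did not pass (FDR 0.219).

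Predicted folding split the loci into 2 kinds. The RNAfold minimum free energy of the listed precursor was -88.9 kcal/mol for scaffold_3_618738, the lowest of all 699 loci. It was -76.8 for scaffold_3_479557, -75.1 for scaffold_2_310050 and -70.9 for scaffold_3_349748. Such values below -70 kcal/mol were found at 11 of the 312 non-conserved loci, whose median was -35.6. The whole 24 nt mature sequence was paired to the other arm in scaffold_3_618738 and scaffold_3_349748, and 22 and 20 of its bases were paired in scaffold_3_479557 and scaffold_2_310050.

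The 3 loci without sequence relatives had weaker folds. Their energies were -22.9 (scaffold_6_1087335), -17.2 (scaffold_3_502932) and -14.7 kcal/mol (scaffold_9_1441303), which ranked 234, 289 and 306 of 312. In scaffold_3_502932 only 8 of 21 mature bases were paired to the other arm. No other locus shared a run of 12 bases with their mature sequences or of 20 bases with their precursors, on either strand.

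All reads of a precursor were deposited as a sum over the 4 libraries. Those beyond the mature sequence, which include the miRNA* and any other fragment, were 103 of 10047 (1.03%) at scaffold_3_618738 and 362 of 7817 (4.63%) at scaffold_3_479557. The share was 16.6% (38 of 229) at scaffold_2_310050 and 0.134% (6 of 4484) at scaffold_3_349748. It lay between 1.67% and 6.17% at the other 3, with 1 to 5 reads each. The median of the non-conserved loci was 6.09%.

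The precursor of scaffold_3_349748, with the mature sequence in capitals, is shown because related hairpins with other mature sequences differ in their species ratio.
scaffold_3_349748: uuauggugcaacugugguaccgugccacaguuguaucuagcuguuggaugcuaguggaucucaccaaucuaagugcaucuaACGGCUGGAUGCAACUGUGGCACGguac
By shared runs of sequence, 31 loci were related to it, 9 with the same mature sequence and 22 with 10 others. Each sequence was taken at its highest count in each library, which can come from different loci. The control log2 ratio of *C. sinensis* over *C. grandis* then went from -4.46 for the sequence of scaffold_3_349748 to 1.33 for uggauguaacuguggcacggu, labelled sbi-miR6232a-3p. The sequence acuggaugcaacuguggcacg of scaffold_3_555940, labelled osa-miR319a-3p, shares the longest run with it (20 bases) and had log2 ratios of -1.89 and -2.27. The sequence uggaugcaacuguggcacgguacc, listed at 5 loci, shares 19 bases and had up to 645 and 464 reads in *C. grandis* and 60 and 65 in *C. sinensis* (log2 ratio -3.32 and -2.42). The sequence labelled sbi-miR6232a-3p was listed at 3 loci with 16 to 264 reads in control *C. grandis* and 533 to 614 in control *C. sinensis*. Its ratio thus depends on the locus, with control log2 ratios of 1.12, 4.73 and 5.19 at the 3 loci. Related sequences of this hairpin family thus ranged from much higher in *C. grandis* to higher in *C. sinensis*.

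**Figure D5:**
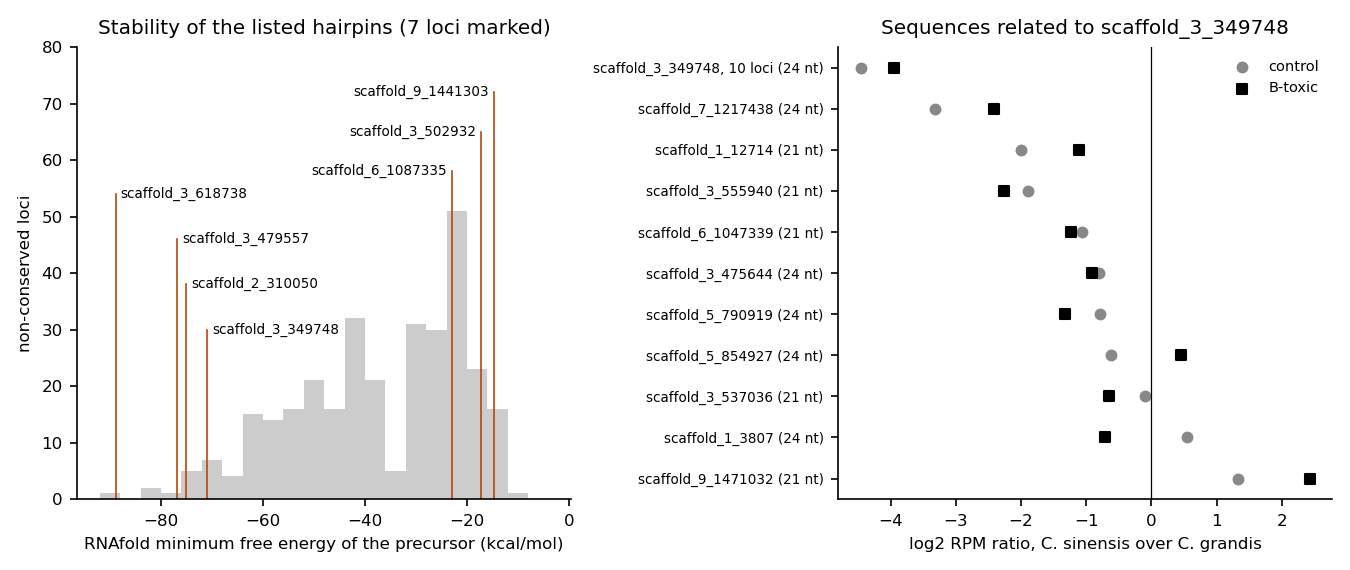
Left, number of non-conserved loci by RNAfold minimum free energy of the precursor (kcal/mol), with the 7 loci marked by lines. Right, log2 RPM ratio of *C. sinensis* over *C. grandis* in control and B-toxic libraries for the 11 mature sequences related to scaffold_3_349748. Each is named by a locus that lists it and taken at its highest count in each library, which can come from different loci. On the left 4 loci lie below -70 and 3 above -23 kcal/mol, and on the right the control ratios run from -4.46 to 1.33.

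The locus most like each of the 7 across the 4 libraries was sought only outside the 7. Candidates had another mature sequence and at least 50 reads. That with the smallest sum of absolute differences in the share of RPM was taken. For scaffold_3_618738 it was scaffold_4_645368, labelled mtr-miR5263, with 0, 0, 32 and 43 reads in control and B-toxic *C. grandis* and *C. sinensis* (distance 0.0521). For scaffold_3_479557 it was scaffold_5_770543, labelled ahy-miR3509-3p, with 3, 6, 39 and 35 reads (0.0970). Those of scaffold_2_310050, scaffold_3_349748 and scaffold_6_1087335 were non-conserved loci, namely scaffold_5_903013 (36, 49, 1 and 0 reads, distance 0.0305), scaffold_23_1546101 (67, 75, 3 and 3 reads, 0.0348) and scaffold_6_995538 (0, 1, 66 and 65 reads, 0.0641). Both scaffold_9_1441303 and scaffold_3_502932 were nearest to scaffold_2_195596, labelled bdi-miR7748b-3p, with 1132, 785, 22 and 22 reads (0.0878 and 0.0816). These 2 members were closer to each other than to it. Their shares of RPM in control and B-toxic *C. grandis* were 58.5% and 41.5% for scaffold_9_1441303 and 58.2% and 41.8% for scaffold_3_502932. With 1 library per condition these distances describe 4 values each.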

How the data were processed

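Leaf sRNA of 2 species at 2 B levels was sequenced as 4 libraries, which were assigned to conditions from their labels. Per the study's methods, adapter dimers, low-complexity reads, rRNA, tRNA, snRNA, snoRNA and repeats were removed, the rest was searched against miRBase 21, and MTide predicted stem-loops on version 1.0 of the *C. clementina* genome. The authors deposited raw read counts of the mature sequence per locus. The counts carry no normalization. How MTide (version not given in the sources used here) shared out reads with several matching loci is not known, and a sequence listed at several loci can have unequal counts. Mature lengths and mismatches (0 at every locus) were deposited in columns of their own.

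RPM were computed with the total of mature reads over all loci, including loci that list the same sequence. Set against the clean reads that the study lists, this total was 2.97 to 3.90%. Tests (scipy 1.17.1) ran over the whole table. With 1 library per condition there is no spread between replicates, so edgeR's quasi-likelihood test was not used. Alternatives were edgeR 4.0.16 (TMM, and its exact test at an assumed CV, the coefficient of variation between libraries), DESeq2 1.42.0 size factors, other totals, filters and limits, and each sequence counted once. Under other scalings an exact conditional test replaced Fisher's test. Precursors were folded with RNAfold 2.7.2. The tests were checked on simulated counts with counting error only, so the check does not cover variation between libraries of a condition. Relatives share a run of at least 12 bases of mature or 20 bases of precursor sequence on either strand. The loci, the rule for named loci (the 7, their relatives and the nearest locus in counts outside the 7), limits and tests were chosen with earlier results of these data known.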

Additional observations from a re-analysis of the deposited data

Results flagged for a closer look

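The B effect on scaffold_3_618738 differed between the species, with 32 control and 15 B-toxic reads in *C. grandis* (log2 ratio -0.89, not called) and 3953 and 5944 in *C. sinensis* (1.10). The exact conditional test of equal ratios gave an FDR of 5.23e-05, and 2.99e-05 to 0.0016 under the 6 alternatives. The same test gave an FDR of 2.98e-08 for scaffold_3_479557, whose log2 ratios were -0.20 and 0.34 and whose FDR reached 0.0803 with the clean-read totals. These tests compare single libraries of mixed RNA, and none of the alternatives allowed for variation between libraries of a condition.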

How the results depend on the processing

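No paired analysis was possible because each condition had 1 library, and for the same reason no library could be left out. At an assumed CV of 0.2 or 0.4 the loci called for a B effect numbered 10 and 3 in *C. grandis* (45 otherwise) and 6 and 0 in *C. sinensis* (12 otherwise), where none of the 7 was among them. In *C. sinensis* 34 of 640 loci (5.31%) had an unadjusted p below 0.05 at a CV of 0.2 (edgeR's exact test), scaffold_3_618738 among them. At a CV of 0.4 it was 10 loci (1.56%), none of them among the 7. Without the ratio limit 112 and 57 loci were called, and other scalings moved the split of calls in *C. grandis* from 24 higher and 21 lower to 34 and 7 (clean-read totals). The split in *C. sinensis* moved from 9 and 3 to 7 and 5 (DESeq2's size factors). The difference of the B effect between species, called at 77 loci, went from 46 higher and 31 lower in *C. sinensis* to 21 and 34 with DESeq2's size factors or clean-read totals. The 59 of 317 loci at least 4-fold apart between the species became 39 of 237 with each sequence counted once. The split then went from 40 higher in *C. grandis* and 19 higher in *C. sinensis* to 23 and 16. Over the 317 loci the 59 became 113 at 2-fold and 33 at 10-fold. Adding scaffold_7_1151387 to the hairpin pair moved the share of scaffold_3_618738 from 54.6% to 51.8% in control and from 67.0% to 64.8% in B-toxic *C. sinensis*. With clean-read totals the log2 B effect on scaffold_3_479557 in *C. grandis* turned from -0.199 to 0.0545, uncalled in both; the cause of these changes was not tested. Of 70 species values of the 7 loci under other totals or with each sequence counted once, 16 moved and none changed sign. A value moved where it left its counting interval. The 4 loci with 0 reads in 1 species were held to a looser limit, a shift of 1 on the log2 scale. No setting shifted a ratio by more than 0.62, so these 4 loci could not be marked as moved. For the same reason none of the 7 could change sign.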
